A study of Chlorocebus aethiops with 10 samples.

Results

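Peroxins, peroxisomal transporters and peroxisomal enzymes were followed in the liver of African green monkeys (Chlorocebus aethiops) after inhibition of the microRNAs miR-33a and miR-33b. The set held 36 genes chosen for their function, by a rule that uses no measured value but was written with earlier results of these data known, and matched by symbol. Of these, 34 were measured among 16583 genes in all, and PEX13 and SCP2 were not analysed here. Moderately obese adult females had been kept for 12 weeks on food rich in fat. The antimiR-33a/b animals (n = 5), called treated animals here, were injected under the skin with antimiR-33a/b, an oligonucleotide with locked nucleic acids that targets both microRNAs, first at 20 mg/kg and then weekly at 5 mg/kg. Control animals (n = 5) received 0.9% NaCl as vehicle. All 10 animals shared the diet, and the biopsy of each liver, collected on day 57 of the 8-week course, was hybridised to 1 array. The study allotted 20 animals at random to 4 groups, and the groups given either antimiR alone were not analysed here.

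Peroxisomes are small organelles that hepatocytes hold in large numbers. They shorten very long, branched and bile acid side chains by beta-oxidation, remove the methyl-branched phytanic acid by alpha-oxidation, start the synthesis of ether lipids, and turn glyoxylate into glycine. Many of their oxidases make hydrogen peroxide, which catalase destroys. The proteins called peroxins build the organelle: some insert its membrane proteins, some carry folded enzymes inside, and others divide it. In rodents the nuclear receptor PPARA strongly raises peroxisomal enzymes and peroxisome number, while the response of primate liver is weaker. The roles given below are those known from human and mouse.

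All 45033 array features held values on both sides of 0, with a mean over the 10 animals between -0.51 and 0.55, so the values were read as centred per feature; how this was done, and over which arrays, is not stated. Read so, a value tells how an animal stood relative to the others for that gene, and says nothing of whether one gene was more abundant than another. The unit was read as log2; no source used here gives the base of the logarithm. Signal over background is unknown, and the number of arrays limits the precision. No pair of the 10 arrays held identical values (0 of 45 pairs), and array medians ran from -0.054 to 0.061. The presence of hepatocyte RNA could not be checked as a level, since values around 0 for every feature carry no level.

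Of the 34 measured peroxisomal genes, 5 rose and 1 fell in treated livers at an adjusted p under 0.05 in limma. The rises were in PEX19, PEX2, ACOX2, PHYH and CAT, between 1.14-fold and 1.36-fold, and the fall was in PEX11G, to 0.779-fold. The 6 calls made up 17.6% of the set, against 20.5% of all genes called in the same fit. Calls upward were 14.7% of the set against 13.7% of all genes, and calls downward 2.94% against 6.8%. The share of peroxisomal genes called was therefore close to that of the whole array in this fit. It was lower in others, 8.82% against 19.8% with quantile-normalized arrays and 11.8% against 23.4% with arrays shifted to share a median. In bulk liver RNA, more cells of a type and more RNA per cell cannot be told apart. Differences were positive in 27 of the 34 (79.4%, against 59.2% of all genes), with a median of 0.14 on the log2 scale against 0.039 for all genes. With quantile-normalized arrays 21 of the 34 differences were positive, since ABCD4, PIPOX, ABCD2, PEX7, AGPS and PEX16, all near 0, changed sign. Over all genes 2271 were higher and 1128 lower, and 1784 and 1504 with quantile normalization. An unadjusted p under 0.05 was reached by 14 of the 34 (41.2%, against 35.6% of all genes).

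**Figure D1:**
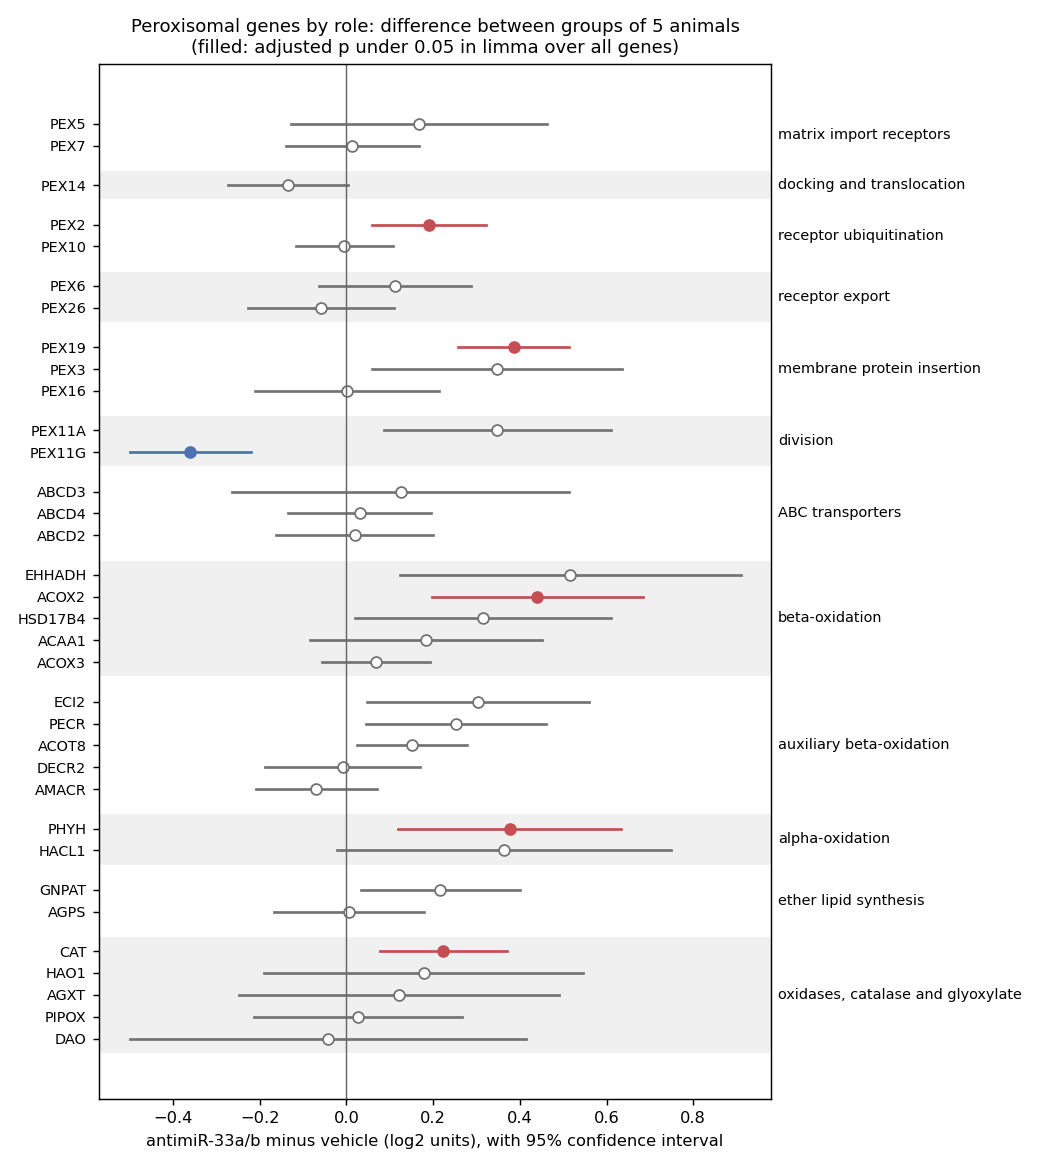
Difference between antimiR-33a/b and vehicle animals (x axis, log2 units) for each of the 34 measured genes, ordered by role, with 95% confidence intervals from limma. Filled points mark the 6 genes with an adjusted p under 0.05, which are PEX19, PEX2, ACOX2, PHYH and CAT to the right of 0 and PEX11G to the left.

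The widest separation between groups was in membrane protein insertion. PEX19, the cytosolic chaperone that delivers newly made membrane proteins to the peroxisome, had values of -0.24, -0.25, -0.20, -0.14 and -0.27 in vehicle animals 1 to 5. Its values were 0.26, 0.12, 0.16, 0.26 and 0.039 in treated animals 1 to 5. All 5 treated animals lay above all 5 vehicle animals. The mean moved from -0.22 ± 0.052 (SD, n = 5) to 0.17 ± 0.094 (SD, n = 5), a difference of 0.39 (SE 0.060, 95% confidence interval 0.26 to 0.51, limma adjusted p = 0.0021), or 1.31-fold. PEX19 was the 1 gene of the 34 whose treated values were all above the vehicle range, an arrangement seen in 8.79% of all genes.

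PEX3 is the membrane anchor on which PEX19 docks. It read 0.024, -0.24, -0.40, 0.0042 and -0.52 in vehicle animals and 0.32, -0.16, 0.48, -0.0062 and -0.030 in treated animals. The groups overlapped, with treated animals 2, 4 and 5 inside the vehicle range. Its difference of 0.35 (SE 0.13, 95% confidence interval 0.059 to 0.64) missed the threshold (limma adjusted p = 0.0810).

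PEX16, which brings PEX3 to the membrane, had a mean difference of 0.0013 (95% confidence interval -0.21 to 0.21, limma adjusted p = 0.994), but this mean hid a pair of array features that went opposite ways. The first feature read -0.062, -0.39, -0.17, 0.036 and -0.83 in vehicle animals and 0.28, 0.042, -0.13, -0.073 and 0.049 in treated animals. Its groups overlapped, with a difference of 0.32 (SE 0.14, limma adjusted p = 0.121 over the 18188 features that carry a symbol). The second feature read 0.25, 0.36, 0.22, 0.32 and 0.078 in vehicle animals and 0.076, -0.039, -0.25, -0.050 and -0.081 in treated animals. Every treated value of the second feature lay below every vehicle value, by a margin of thousandths at its narrowest, and the difference was -0.31 (SE 0.073, limma adjusted p = 0.0118). In that fit 20.5% of features were called. Over gene means, all 5 treated values lay below all 5 vehicle values in 4.52% of all genes. What part of the transcript either feature reads was not analysed here, so the direction of PEX16 is uncertain. The other genes with more than 1 feature were PHYH, whose features both had positive differences, and ABCD4 and PEX10, whose 4 features differed by between -0.020 and 0.076.

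Division factors held the 1 gene that fell. PEX11G, one of the PEX11 proteins that shape the peroxisomal membrane before division, read 0.21, 0.19, 0.21, 0.12 and 0.36 in vehicle animals. In treated animals it read -0.29, -0.030, -0.12, -0.12 and -0.14. All 5 treated values lay below the vehicle range, an arrangement found in 4.52% of all genes. The mean went from 0.22 ± 0.087 (SD, n = 5) to -0.14 ± 0.094 (SD, n = 5), a difference of -0.36 (SE 0.065, 95% confidence interval -0.50 to -0.22, limma adjusted p = 0.0041).

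Its paralogue PEX11A, the form that fasting and PPARA activators induce in rodent liver, had a positive difference that did not pass the threshold. PEX11A read -0.23, -0.16, -0.25, 0.21 and -0.18 in vehicle animals and 0.51, 0.062, 0.48, -0.086 and 0.17 in treated animals. Vehicle animal 4 stood above the other 4 vehicle animals and above 3 of the treated animals. The difference was 0.35 (SE 0.12, 95% confidence interval 0.087 to 0.61, limma adjusted p = 0.0580), and 0.43 with an adjusted p of 0.0174 without vehicle animal 4. PEX11A also passed without treated animal 4 (limma adjusted p = 0.0302), and it missed in 8 of the 10 fits that each left out 1 animal. The adjusted p was 0.0270 with array weights and 0.118 with quantile-normalized arrays. Subtracting the centred value of PEX11G from that of PEX11A gave -0.44, -0.35, -0.45, 0.092 and -0.54 in vehicle animals and 0.80, 0.092, 0.61, 0.039 and 0.31 in treated animals. The pair was chosen after the values were seen, and the zero of this difference is set by the centring of each feature, so its sign carries no support, and no test was made of it.

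**Figure D2:**
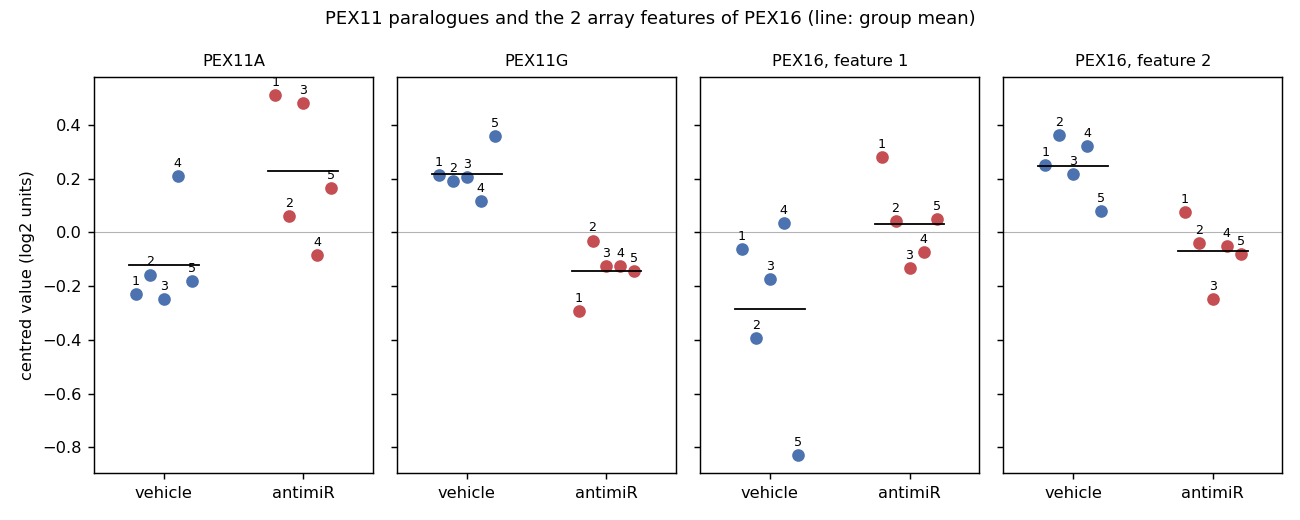
Centred value (y axis, log2 units) of PEX11A, PEX11G and the 2 array features of PEX16 in each animal, numbered within its group, with the group mean as a line. PEX11G is lower in all 5 treated animals, PEX11A overlaps through vehicle animal 4, and the PEX16 features differ by 0.32 and -0.31.

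Among the genes that import enzymes into the matrix, PEX2 rose. PEX2 is a ubiquitin ligase that works with PEX10 to release the import receptor from the membrane. It read -0.21, -0.16, -0.14, -0.11 and 0.0069 in vehicle animals and 0.12, -0.054, 0.050, 0.15 and 0.077 in treated animals. Treated animals 1, 3, 4 and 5 lay above the vehicle range, and treated animal 2 lay inside it. The difference was 0.19 (SE 0.061, 95% confidence interval 0.058 to 0.32, limma adjusted p = 0.0433). PEX2 missed the threshold without any 1 of vehicle animals 1, 2 and 3 or treated animals 1, 3, 4 and 5 (adjusted p up to 0.110), and its adjusted p was 0.0748 with quantile-normalized arrays and 0.0349 when arrays were shifted to share a median.

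The partner ligase PEX10 differed by -0.0049 with the narrowest interval of the set, -0.12 to 0.11. The import receptors PEX5, which binds the common C-terminal targeting signal, and PEX7, which binds the rarer N-terminal one, differed by 0.17 and 0.013. PEX14, the docking protein for both receptors, differed by -0.14 (95% confidence interval -0.27 to 0.0029, limma adjusted p = 0.148). PEX6, an ATPase that pulls used receptors out of the membrane, and its anchor PEX26 differed by 0.11 and -0.059. In limma none of these 6 genes passed, and 0 of the 6 had an unadjusted p under 0.05, beside 20.5% and 35.6% of all genes.

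In the beta-oxidation cycle all 5 measured genes had positive differences, against 59.2% of all genes. Of the 5, 1 passed (20%, against 20.5% of all genes). ACOX2, the oxidase that opens the oxidation of branched fatty acids and bile acid side chains, read -0.56, -0.31, -0.27, -0.039 and -0.38 in vehicle animals. Its treated values were 0.22, 0.0010, 0.48, -0.083 and 0.014. Treated animals 1, 2, 3 and 5 lay above the highest vehicle value, which was that of vehicle animal 4. The difference was 0.44 (SE 0.11, 95% confidence interval 0.20 to 0.68, limma adjusted p = 0.0179), or 1.36-fold, and it passed in all 10 fits that each left out 1 animal (adjusted p up to 0.0480).

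EHHADH, the bifunctional enzyme that takes the L-form of the intermediates and a well-known PPARA target, had the largest difference of the set and did not pass. It read -0.22, -0.19, -0.44, 0.46 and -0.41 in vehicle animals and 0.65, -0.062, 0.47, 0.70 and 0.025 in treated animals. The SD was 0.36 in vehicle and 0.35 in treated animals. Its difference was 0.52 (SE 0.18, 95% confidence interval 0.12 to 0.91, limma adjusted p = 0.0607), and 0.67 with an adjusted p of 0.0090 without vehicle animal 4. EHHADH also passed without treated animal 2 or 5 (limma adjusted p = 0.0308 and 0.0485), and it missed in 7 of the 10 fits without 1 animal. The adjusted p was 0.0230 with array weights and 0.0874 with quantile-normalized arrays.

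HSD17B4, the bifunctional enzyme for the D-form, also had its highest vehicle value in vehicle animal 4. It read -0.33, -0.29, -0.37, 0.27 and -0.43 in vehicle animals and 0.22, 0.037, 0.29, 0.18 and -0.31 in treated animals. Treated animal 3 alone lay above vehicle animal 4, and treated animal 5 lay among the low vehicle animals. The difference was 0.31 (95% confidence interval 0.019 to 0.61, limma adjusted p = 0.118), and 0.44 with an adjusted p of 0.0119 without vehicle animal 4. HSD17B4 also passed without treated animal 5 (limma adjusted p = 0.0438), and it missed in 8 of the 10 fits without 1 animal. The thiolase ACAA1, which closes the cycle, differed by 0.18 and the oxidase ACOX3 by 0.069, neither past the threshold.

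**Figure D3:**
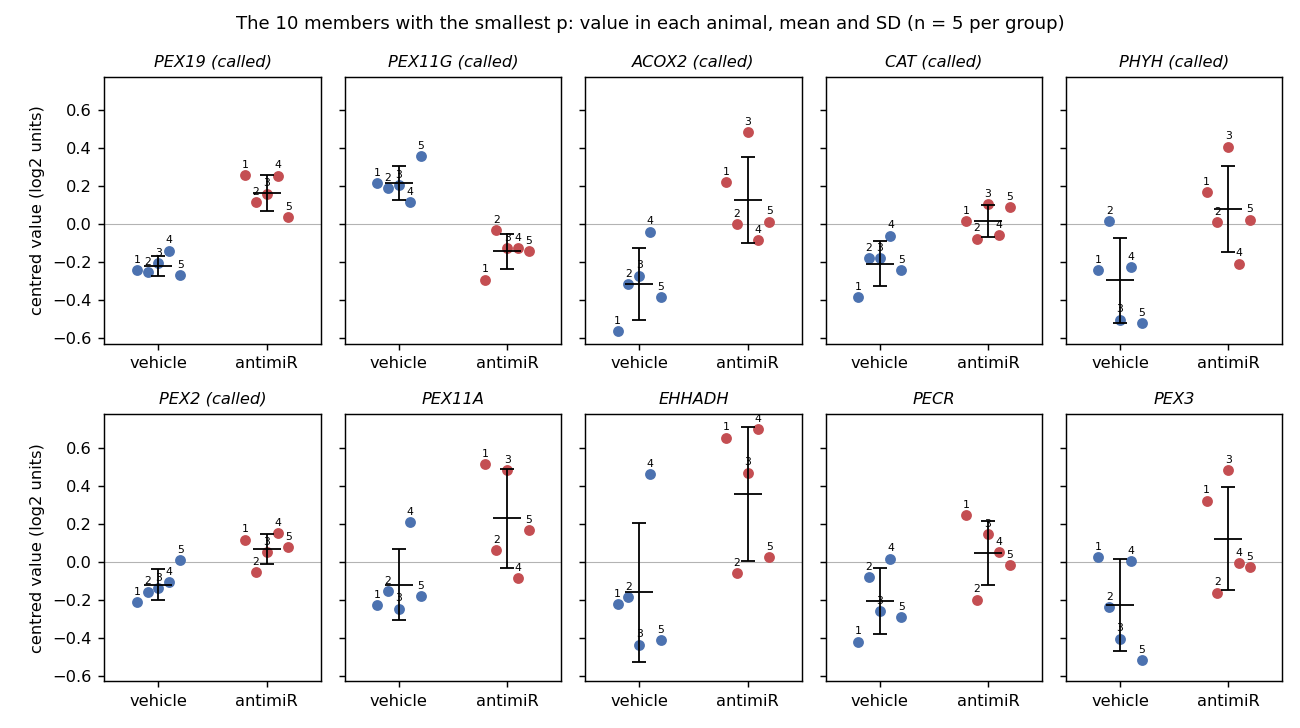
Centred value (y axis, log2 units) in each animal for the 10 genes with the smallest p, with mean and SD of each group (n = 5); numbers give the animal within its group. PEX19 and PEX11G show no overlap between groups, whereas vehicle animal 4 reaches treated values in PEX11A and EHHADH.

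Of the 5 auxiliary enzymes of beta-oxidation, 0 passed in limma, against 20.5% of all genes. An unadjusted p under 0.05 was reached by 3 (60%, against 35.6% of all genes). PECR, a reductase of trans-enoyl-CoA, read -0.42, -0.081, -0.26, 0.016 and -0.29 in vehicle animals and 0.24, -0.20, 0.15, 0.050 and -0.016 in treated animals. Treated animals 2 and 5 fell inside the vehicle range, and the difference was 0.25 (SE 0.096, 95% confidence interval 0.045 to 0.46, limma adjusted p = 0.0787). The isomerase ECI2 differed by 0.30 (adjusted p = 0.0840) and the thioesterase ACOT8, which frees acyl chains from coenzyme A, by 0.15 (adjusted p = 0.0825). DECR2, a reductase for polyunsaturated chains, differed by -0.0087, and the racemase AMACR, which readies branched chains for the oxidases, by -0.070.

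In alpha-oxidation, PHYH rose. PHYH hydroxylates phytanoyl-CoA, and its loss causes Refsum disease in humans. It read -0.24, 0.017, -0.50, -0.23 and -0.52 in vehicle animals and 0.17, 0.012, 0.41, -0.21 and 0.025 in treated animals. Treated animals 1, 3 and 5 lay above the vehicle range, and treated animal 4 lay near its middle. The difference was 0.38 (SE 0.12, 95% confidence interval 0.12 to 0.63, limma adjusted p = 0.0415), and the 2 features differed by 0.29 and 0.46. PHYH missed the threshold without any 1 of vehicle animals 1, 3 and 5 or treated animals 1, 2, 3 and 5 (adjusted p up to 0.0970). Its adjusted p was also 0.104 with quantile-normalized arrays, 0.0674 with arrays shifted to share a median and 0.0611 with array weights. HACL1, the lyase that follows PHYH, had a difference of similar size, 0.36, with a wider interval of -0.022 to 0.75 (limma adjusted p = 0.162).

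Catalase, which breaks down hydrogen peroxide, rose as well. CAT read -0.38, -0.18, -0.18, -0.059 and -0.24 in vehicle animals and 0.017, -0.075, 0.11, -0.055 and 0.090 in treated animals. Treated animals 1, 3, 4 and 5 lay above the vehicle range, animal 4 by a margin in the third decimal. The difference was 0.22 (SE 0.068, 95% confidence interval 0.076 to 0.37, limma adjusted p = 0.0361). CAT missed the threshold without any 1 of vehicle animals 1, 2, 3 and 5 or treated animals 1, 3 and 5 (adjusted p up to 0.0924). It was at 0.127 with quantile-normalized arrays and at 0.0519 with shifted arrays.

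The oxidases and the glyoxylate enzymes beside it did not pass. HAO1, which oxidises glycolate to glyoxylate, differed by 0.18 and AGXT, which turns glyoxylate into glycine, by 0.12. PIPOX, the oxidase of pipecolic acid and sarcosine, differed by 0.027. DAO, the oxidase of D-amino acids, differed by -0.043, and its spread was wide in treated animals, with values of 0.66, -0.69, -0.62, 0.22 and -0.077 against 0.027, 0.070, 0.11, -0.20 and -0.30 in vehicle animals. The SD of DAO was 0.57 in treated and 0.18 in vehicle animals, and treated animals lay both above and below the vehicle range.

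Ether lipid synthesis begins with GNPAT and AGPS. GNPAT differed by 0.22 (95% confidence interval 0.033 to 0.40, limma adjusted p = 0.0869), and AGPS by 0.0054 (-0.17 to 0.18, adjusted p = 0.970). The transporters of the ABCD family differed by 0.12 for ABCD3, which takes in branched chains and bile acid precursors, and by 0.019 for ABCD2, a carrier of very long chains. ABCD4, a relative that works in cobalamin transport at the lysosome in human cells, differed by 0.030. All 3 missed the threshold, and the interval of ABCD3 was wide (-0.26 to 0.51), with vehicle animal 4 at 0.60.

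The peroxins and the enzymes were also counted apart. Of 12 measured peroxins 2 rose and 1 fell, differences were positive in 8 (66.7%), and the median was 0.062. Of 22 transporters and enzymes 3 rose and 0 fell, differences were positive in 19 (86.4%), and the median was 0.17. The calls were 25% of the peroxins and 13.6% of the transporters and enzymes, beside 20.5% of all genes called and 59.2% positive. The 8 positive peroxins include PEX16, at 0.0013, whose 2 features went opposite ways. With quantile-normalized arrays, differences were positive in 50% of the peroxins and 68.2% of the transporters and enzymes, beside 55.8% of all genes. The medians were then 0.017 and 0.11, and the calls 16.7% and 4.55%, beside 19.8% of all genes. The difference between these subsets was not tested. Within groups, the enzymes varied more between animals, with a median SD of 0.18 in vehicle and 0.17 in treated animals, than the peroxins (0.10 and 0.12) or all genes (0.12 and 0.11).

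The highest and lowest values within a group often fell in the same animals, and their part in these spreads was not tested. Vehicle animal 4 held the highest vehicle value for 18 of the 34 genes (52.9%, against 21.3% of all genes) and for 12 of the 22 transporters and enzymes. Vehicle animal 5 held the lowest vehicle value for 14 (14.4% of all genes were lowest there). Among treated animals, animals 1 and 3 were highest for 13 and 10 genes (17.5% and 17.0% of all genes were highest there). Treated animals 2 and 5 were each lowest for 11 (15.6% and 18.8% of all genes). Over all genes, vehicle animal 4 and treated animal 1 were also lowest in their group for 41.4% and 35.3%. The median of the 34 genes was -0.13, -0.035, -0.13, -0.0061 and -0.28 in vehicle animals and 0.15, -0.037, 0.085, 0.0060 and -0.0041 in treated animals. Treated animal 2 lay below vehicle animals 2 and 4 on this summary, so the groups overlapped.

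Without vehicle animal 4, 11 of the 34 genes were higher and 1 was lower. That is 35.3% of the set against 24.8% of all genes in that fit, with 32.4% against 15.2% for calls upward. This animal held the highest vehicle value for 18 of the 34, so leaving it out lowered the vehicle mean of those genes. The larger share upward follows in part from the animal left out and carries no support. The same holds for the values of PEX11A, EHHADH and HSD17B4 given above without it. Leaving out a treated animal that was low for one of these genes likewise raised its treated mean, so those passes carry no support either. The 6 genes called with all animals were kept, and PEX11A, PEX3, EHHADH, HSD17B4, PECR and GNPAT were added. Without vehicle animal 1 or 3, or treated animal 1 or 3, 2 genes were higher, and without vehicle animal 2 or 5, 3 were. Without treated animal 2, 7 were higher, and without treated animal 4 or 5, 5 were. The number called over all genes also changed between these fits, from 3399 with all animals to 4117 without vehicle animal 4, for example. These counts of the 34 are therefore given without the share of all genes, and alone they do not set the genes apart from the whole array. PEX19, PEX11G and ACOX2 passed in all 10 of these fits.

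A further measure moved with the groups over the whole array. For each animal, the median of 513 genes of families that liver does not normally express, such as olfactory and taste receptors, was subtracted from the median of 401 genes of families that all cells use, such as ribosomal and proteasome proteins. This contrast was -0.28, -0.17, -0.26, -0.019 and -0.30 in vehicle animals and 0.23, -0.089, 0.20, 0.034 and -0.015 in treated animals. It was highest in treated animals 1 and 3 and, among controls, in vehicle animal 4, the animals in which peroxisomal genes were most often the highest of their group.

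With the contrast as a covariate in limma, 0 of the 34 genes passed, 5 had an unadjusted p under 0.05, and 2.93% of all genes were called. PEX19 then differed by 0.28 (SE 0.078, adjusted p = 0.0621) and PEX11G by -0.21 (SE 0.077, adjusted p = 0.118). PEX2 differed by 0.15 (adjusted p = 0.280), and ACOX2, CAT and PHYH by 0.074, 0.083 and 0.085. Of the 34 differences 19 changed sign, EHHADH to -0.13 and PEX11A to -0.082 among them, and the median went from 0.14 to -0.082 while that of all genes was 0.087. The part of the contrast in these results was not tested.

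**Figure D4:**
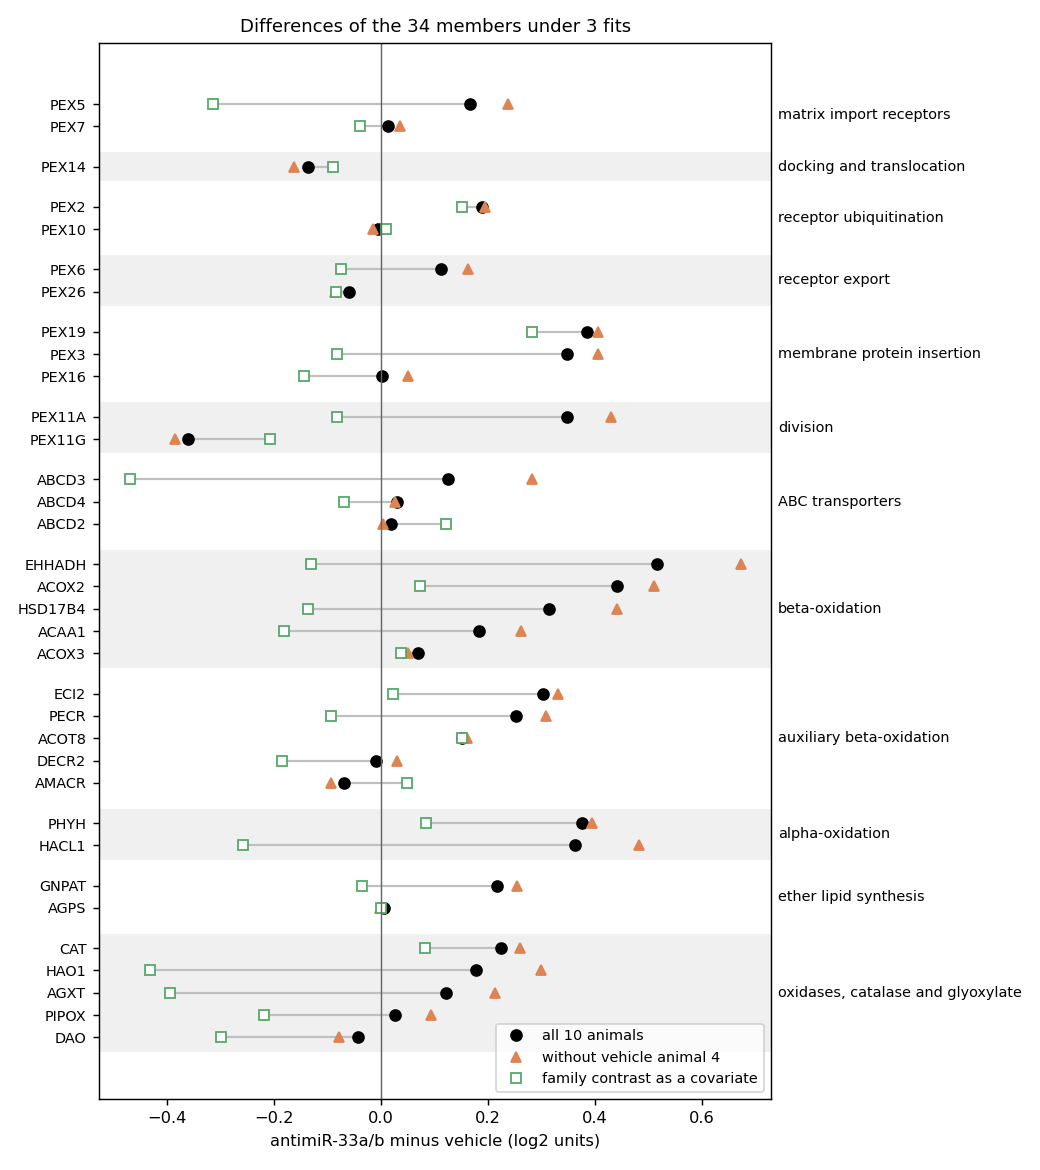
Difference between antimiR-33a/b and vehicle animals (x axis, log2 units) for each of the 34 genes with all 10 animals, without vehicle animal 4, and with the contrast of expressed against silent families as a covariate. With the covariate 0 genes pass, 19 change sign, and PEX19 and PEX11G move from 0.39 and -0.36 to 0.28 and -0.21.

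Other genes of the peroxisome were read from a list of 41, of which 32 were measured. In limma 7 rose and 0 fell, 21.9% against the 20.5% of all genes, with a median difference of 0.15. CROT, which passes shortened chains to carnitine for export to mitochondria, and which belongs to the reported miR-33 targets, rose by 0.67 (adjusted p = 0.0171). IDH1, a source of NADPH, rose by 0.43 (adjusted p = 0.0101), and NUDT12, a hydrolase of nucleotide cofactors, by 0.35 (adjusted p = 0.0119). DNM1L, the dynamin-related protein that severs peroxisomes and mitochondria, rose by 0.27 (adjusted p = 0.0122), with all 5 treated animals above the vehicle range. Such an arrangement was seen in 2 of the 32 (6.25%), against 8.79% of all genes. DHRS4, HAO2 and GSTK1, enzymes of carbonyl, hydroxy acid and glutathione metabolism, rose by 0.39, 0.55 and 0.35 (adjusted p = 0.0196, 0.0330 and 0.0381). Leaving out single animals took HAO2 and GSTK1 past 0.05 in 6 of 10 cases each and DHRS4 in 1, and 4 genes rose without vehicle animal 1. FIS1, a membrane adaptor for DNM1L, differed by -0.27 (adjusted p = 0.0870), and the D-aspartate oxidase DDO by 0.24 (adjusted p = 0.0521). When the contrast of families entered limma as a covariate, 0 of these 32 passed and 4 had an unadjusted p under 0.05.

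PPARA and genes it has been reported to control in liver formed a list of 20 with 19 measured. TXNIP, a thioredoxin-binding protein, rose by 0.76 (limma adjusted p = 0.0044) and ACADM, the medium-chain acyl-CoA dehydrogenase of mitochondria, by 0.47 (adjusted p = 0.0482), and 0 fell. That is 10.5% of the list against 20.5% of all genes, with a median difference of 0.21. PPARA itself differed by -0.029 (adjusted p = 0.879). Vehicle animal 4 was the highest vehicle animal for 17 of the 19, and its median over the list was 0.45, against -0.24 to -0.084 in the other vehicle animals and -0.0077 to 0.30 in treated animals. Without vehicle animal 4, 8 of the 19 were higher (42.1%, against 15.2% of all genes in that fit). Leaving out the animal that was highest for 17 of the 19 lowered the vehicle mean of those genes, so this share carries no support. ACADM lost its call in 8 of the 10 fits with 1 animal left out.

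Hepatocyte markers moved in the same direction between groups. Of 10 measured, 5 rose and 0 fell (50.0% higher, against 13.7% of all genes). Their median ran from -0.37 to -0.039 in vehicle animals and from -0.11 to 0.14 in treated animals. Vehicle animal 4 was the highest vehicle animal for these markers and for the 34 genes. Treated animal 1 had the highest treated median of the 34 genes (0.15) and the lowest of the markers (-0.11). In treated animal 2 this was reversed (-0.037 and 0.14). Markers of kidney tubule, a tissue that also uses DAO and HAO2, had 0 of 4 calls in limma and 0 with an unadjusted p under 0.05. T and NK cell markers fell in 3 of 11 cases (27.3%, against 6.8% of all genes) and rose in 1. Beside the 13.7% of all genes that rose, endothelial markers rose in 3 of 10 cases (30.0%), stellate cell markers in 4 of 12 (33.3%) and B and plasma cell markers in 2 of 6 (33.3%). Among 7 markers of cholangiocytes 0 passed in limma (1 at an unadjusted p under 0.05), among 6 of red cells 0 (2), and among 11 of macrophages 0 (1). The macrophage median was 0.44 in vehicle animal 4, against -0.45 to -0.11 in the other vehicle animals and -0.26 to 0.21 in treated animals. The red cell markers had a median difference of 0.77, with 5 of 6 positive and HBB, a haemoglobin chain, at 1.25 (adjusted p = 0.0551). Their median was 1.74 and 1.06 in treated animals 2 and 5 and -0.017 to 0.41 in the other treated animals, against -0.76 to 0.28 in vehicle animals. Within their group, treated animals 2 and 5 were also those most often lowest for the 34 peroxisomal genes. The vehicle group differed: animals 4 and 2 had its highest red cell medians (0.28 and 0.24) and its highest medians of the 34 genes (-0.0061 and -0.035). Vehicle animal 5, with a red cell median of 0.18, had the lowest median of the 34 (-0.28). Without vehicle animal 4, 2 of the 11 macrophage markers were higher (18.2%, against 15.2% of all genes), and of the 6 B and plasma cell markers 0 were (4 at an unadjusted p under 0.05 in limma). The part of cell makeup in the peroxisomal differences was not tested.

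**Figure D5:**
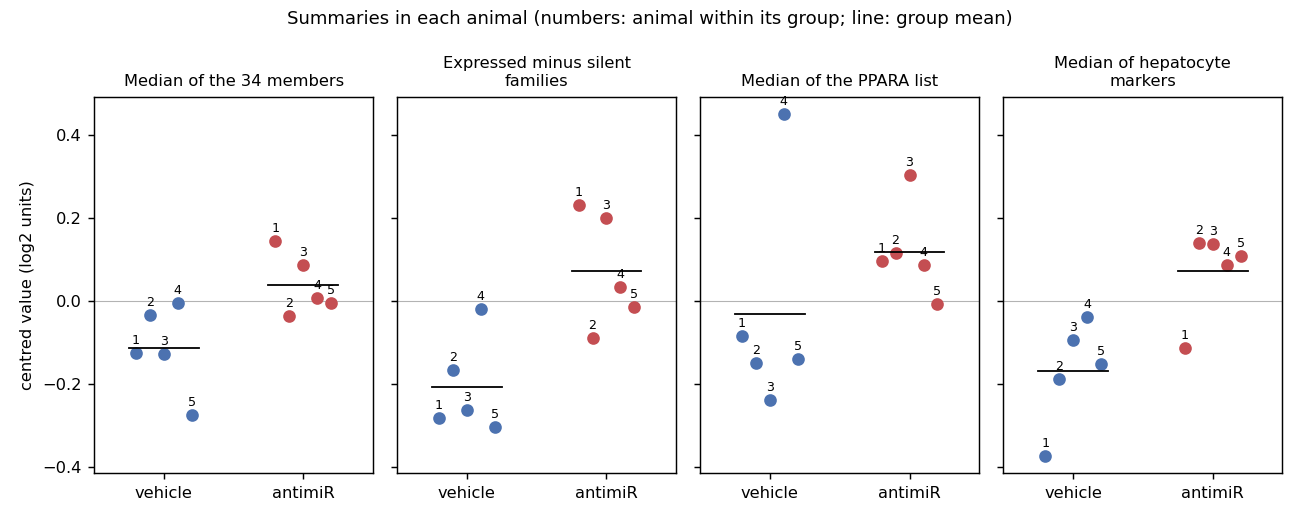
Median of the 34 peroxisomal genes, contrast of expressed against silent families, median of the PPARA list and median of the hepatocyte markers in each animal (y axis, log2 units), with group means as lines and the animal's number in its group. Vehicle animal 4 is the highest vehicle animal in all 4 panels, and treated animals 1 and 3 are the highest in the first 2.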

How the data were processed

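The deposited values are log2 values as used here, read as centred per feature from the values themselves, in the table the authors deposited; double-stranded cDNA from 1 µg of liver RNA was labelled with Cy3, per the labels' protocols. Which scanner, normalization, centring and log base were used is not given in the sources read here. Of 45033 features, 18188 carried 1 gene symbol, 0 several and 26845 none in the platform's annotation, and the mean over a gene's features gave 16583 genes (1286 with several features). Groups came from the treatment label. The labels give no pairing and no batch. All 10 arrays entered one fit per gene in limma 3.58.1 under R 4.3.3 (lmFit, then eBayes), without covariates. Genes were called at a Benjamini-Hochberg adjusted p under 0.05, adjusted over all 16583. The fit was tested on simulated data. Alternatives were quantile normalization, a shift of arrays to the same median, the first feature of a gene, robust eBayes, array weights, the family contrast as a covariate and fits without each animal. Members, lists and families were chosen with earlier results of these data known. All members are named; values per animal are given for those that passed and the 4 next by p. From the peroxisomal and PPARA lists, genes that passed and at most 2 more are named, and the marker lists are given as counts. The per-animal values of HSD17B4, DAO and PEX16 were added after their values were seen. Protein and promoter sequences were not used here.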

Additional observations from a re-analysis of the deposited data

Results flagged for a closer look

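In vehicle animal 4, 3 genes stood apart from the other 4 vehicle animals by a gap wide for a group of 5. PEX11A was at 0.21 there, against -0.25 to -0.16 in the others. EHHADH was at 0.46, against -0.44 to -0.19. HSD17B4 was at 0.27, against -0.43 to -0.29. Such a gap appears by chance in about 1 of 20 groups, and 68 groups of 5 values were examined, 2 for each gene.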

How the results depend on the processing

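With 5 genes higher and 1 lower among the 34, the count of higher genes was 2 after quantile normalization, 3 after a shift of arrays to the same median, 0 with the family contrast as a covariate, and 2 to 11 over the fits without 1 animal. The count of lower genes was 0 with the covariate and 1 under every other alternative run. The median difference over the 34 (0.14) was -0.082 with the covariate, 0.077 after quantile normalization and 0.070 to 0.20 without 1 animal. Among the other peroxisomal genes, the 7 higher were 0 with the covariate and 4 to 9 without 1 animal, and the 0 lower were 1 with array weights and 0 to 1 without 1 animal. Of the PPARA list, the 2 higher were 1 after the shift of arrays, 1 with robust eBayes, 5 with array weights, 0 with the covariate and 1 to 8 without 1 animal. Over all genes, the 3399 called were 486 with the covariate and 1925 to 4117 without 1 animal. The second PEX16 feature, fitted on its own by a choice made after seeing the data, differed by -0.31. The cause was not tested. No paired analysis was possible because the labels number no animals across groups. Signal over background is unknown, so it is not known which genes lay near background.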
